A study of Homo sapiens with 95 samples.

Results

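The 10 genes described here encode proteins that hold back ERK signaling, and their RNA was followed in human bronchial epithelial cells exposed to tobacco-related chemicals. They were 5 dual-specificity phosphatases (DUSP1, DUSP4, DUSP5, DUSP6 and DUSP10), 3 Sprouty genes (SPRY1, SPRY2 and SPRY4) and 2 SPRED genes (SPRED1 and SPRED2). The members were taken by symbol from the 27978 genes of the count files, and all 10 were found in every file and passed the filter on low counts. AALE cells, an immortalized bronchial epithelial cell line, had been made into 8 lines. FAT1 and CDKN2A were CRISPR knockouts, and their control (GFP) received the pSpCas9-EGFP plasmid PX458 without a guide RNA. NRF2 (NFE2L2), FGFR1, NRG1 and PIK3CA were overexpression lines, and their control (HCRED) carried an empty vector with the reporter HcRed. Each line was treated with cigarette smoke condensate (CSC, 24 μg/ml), benzo[a]pyrene (BaP, 173 μM), the tobacco nitrosamine NNK (490 μM) or DMSO, and the length of exposure was not given in the sources used here. Whether a line was 1 clone was not given either. The 32 combinations had 3 samples each, except FGFR1 with CSC, which had 2, for 95 samples in all. The study describes the samples of a combination as biological replicates, and p-values judge differences against the spread between samples. In the fits over all lines or all treatments, this spread also holds differences in response between lines. No independently made lines of a genotype are labelled, so p-values of a line against its control do not cover the spread between such lines.

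Growth factor receptors switch on RAS, RAF, MEK and ERK in turn, and active ERK turns on genes that in turn restrain it. DUSP1, DUSP4 and DUSP5 remove the activating phosphates from MAP kinases in the nucleus, with DUSP1 acting also on p38 and JNK and DUSP5 preferring ERK. DUSP6 does the same for ERK in the cytoplasm, and DUSP10 acts mainly on p38 and JNK. Sprouty proteins and their SPRED relatives act upstream, between the receptor and RAF, and SPRED1 brings the RAS inhibitor neurofibromin to the membrane. In airway epithelium this pathway lies downstream of EGFR and drives proliferation and repair. RNA levels of DUSP6 and SPRY4 are widely used as a readout of ERK output.

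On the GRCh37 assembly, which is the hg19 build of the files, DUSP1 lies at chr5:172195099-172198198 (minus strand), DUSP5 at chr10:112257665-112271291 (plus strand), DUSP6 at chr12:89741012-89746278 (minus strand) and DUSP10 at chr1:221874766-221915431 (minus strand). SPRY1 lies at chr4:124317950-124324915 (plus strand), SPRY2 at chr13:80910111-80915261 (minus strand), SPRY4 at chr5:141689992-141706020 (minus strand), SPRED1 at chr15:38545037-38649450 (plus strand) and SPRED2 at chr2:65537985-65659771 (minus strand). The counts are per gene, over its annotated exons. The annotation places transcripts of the opposite strand over part of DUSP1, DUSP6 and SPRY4, and whether the counting used strand was not given in the sources used here, so reads of such overlaps cannot be told apart. The listed antisense gene SPRY4-AS1 had 0 to 3 reads in each sample, and the pseudogene DUSP5P1 had 0 to 5.

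The 250 bases before the transcription start are shown for 3 members, because DUSP1 on the one hand and DUSP6 and SPRY4 on the other moved differently across the lines. The sequences come from RefSeq (GRCh38.p14) and were placed on GRCh37 by exact match, on the minus strand, at chr5:172198199-172198448 (DUSP1), chr12:89746279-89746528 (DUSP6) and chr5:141703813-141704062 (SPRY4). The last of these also overlaps an exon of another SPRY4 transcript that has no coding sequence.
DUSP1: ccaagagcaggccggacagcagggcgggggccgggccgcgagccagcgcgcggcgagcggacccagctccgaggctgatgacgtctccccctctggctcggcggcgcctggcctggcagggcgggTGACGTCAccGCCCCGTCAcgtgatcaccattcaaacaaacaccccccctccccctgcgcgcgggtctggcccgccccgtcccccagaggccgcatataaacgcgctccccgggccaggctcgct
DUSP6: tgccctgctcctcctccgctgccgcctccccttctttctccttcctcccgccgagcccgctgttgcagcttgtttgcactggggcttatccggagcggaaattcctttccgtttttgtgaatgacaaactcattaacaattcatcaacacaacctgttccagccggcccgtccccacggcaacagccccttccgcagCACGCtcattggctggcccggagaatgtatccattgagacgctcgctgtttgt
SPRY4: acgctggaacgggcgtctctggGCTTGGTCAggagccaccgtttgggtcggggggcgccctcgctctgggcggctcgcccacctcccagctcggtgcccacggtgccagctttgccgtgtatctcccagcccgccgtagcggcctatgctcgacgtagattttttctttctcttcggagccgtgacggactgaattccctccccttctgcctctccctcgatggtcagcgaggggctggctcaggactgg
Capitals mark matches, on either strand, to any of 5 motifs: the cAMP response element TGACGTCA, the AP-1 site TGANTCA, the ETS site CCGGAA, the core GCGTG of the aryl hydrocarbon receptor site, and the core TGACNNNGC of the antioxidant response element. The DUSP1 sequence held 1 match to the cAMP response element, which 1.65% of all 35116 RefSeq promoter sequences of this length hold, and 1 to the antioxidant response core (10.9% of all). These matches begin 125 and 115 bases before the start and do not overlap. The DUSP6 sequence held 1 match to the aryl hydrocarbon receptor core (32.2% of all), and the SPRY4 sequence held 1 to the antioxidant response core. Neither DUSP6 nor SPRY4 held the ETS letters (14.5% of all) or the AP-1 letters (6.57% of all) in this window. The same window was scanned in 13 promoter entries of 8 members. Of the members not shown, SPRY1 and SPRY2 held the ETS letters in 1 entry each. DUSP10, SPRY1 and SPRED2 held the aryl hydrocarbon receptor core in 1 entry each. A match is a description of letters, and a missing match says only that the letters are not in this window.

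Libraries held 287446 to 2116383 counted reads (median 934235). The medians were 1051110 with DMSO, 825587 with CSC, 836088 with BaP and 753702 with NNK, and the 9 libraries under 500000 reads were 5 of BaP, 3 of NNK and 1 of CSC. NFE2L2, FGFR1, NRG1 and PIK3CA were highest in every sample of their own line. FAT1 was at 67.4 to 128 CPM (counts scaled to the library total) in its knockout line against 258 or more elsewhere. CDKN2A was at 34.7 to 67.1 CPM (median 48.6) in its knockout line and at 78.3 to 148 (median 103.7) in GFP, without overlap. The knockout range did overlap those of HCRED and FGFR1 (both from 61.4 CPM) and FAT1 (from 66.4). Such RNA levels do not show whether the CDKN2A gene was disrupted. NRG1 reads over 100 CPM also appeared in 5 libraries outside the NRG1 line, namely CDKN2A with DMSO sample 3, FGFR1 with DMSO samples 2 and 3, and NRF2 with CSC samples 2 and 3. Other libraries outside the line held fewer NRG1 reads, up to 91.9 CPM (FGFR1 with BaP sample 2), and stayed in every setting that left these 5 out. Below, the 5 libraries said to hold NRG1 reads are those over 100 CPM. All 8 markers of bronchial basal epithelium were read in all 95 libraries (KRT5 at 1660 to 6205 CPM), whereas markers of other cell types were mixed. Of 4 immune markers, CD3E had no read and PTPRC was read in 5 libraries, but CD68 was read in 94 (median 13.6 CPM) and CD14 in 84 (2.70). Of 4 fibroblast markers, COL1A1 was read in all 95 (median 25.9 CPM) and DCN in 56 (1.18), and COL1A2 and PDGFRB had medians of 0. Of 4 endothelial markers, KDR was read in 58 (0.964), and PECAM1, VWF and CDH5 had medians of 0. The part of these reads in the results was not tested. A floor of 3 reads, the limit that a count of 0 allows, equals 1.42 CPM in the deepest library and 10.4 CPM in the shallowest. In bulk RNA, fewer expressing cells and less RNA per cell cannot be told apart.

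Per length, DUSP1 was the most abundant member. Its mean level over the 95 samples was 109 RPKM (reads scaled by exon length and library total), against 11.9 for DUSP4, 10.1 for DUSP5, 9.65 for SPRED2, 9.39 for DUSP6, 7.26 for SPRED1, 4.52 for DUSP10, 3.51 for SPRY2, 2.61 for SPRY4 and 0.766 for SPRY1. Lengths were the union of annotated exons. SPRY1 was close to the limit of detection, with a median of 2 reads in a library and no read in 15 of the 95.

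**Figure D1:**
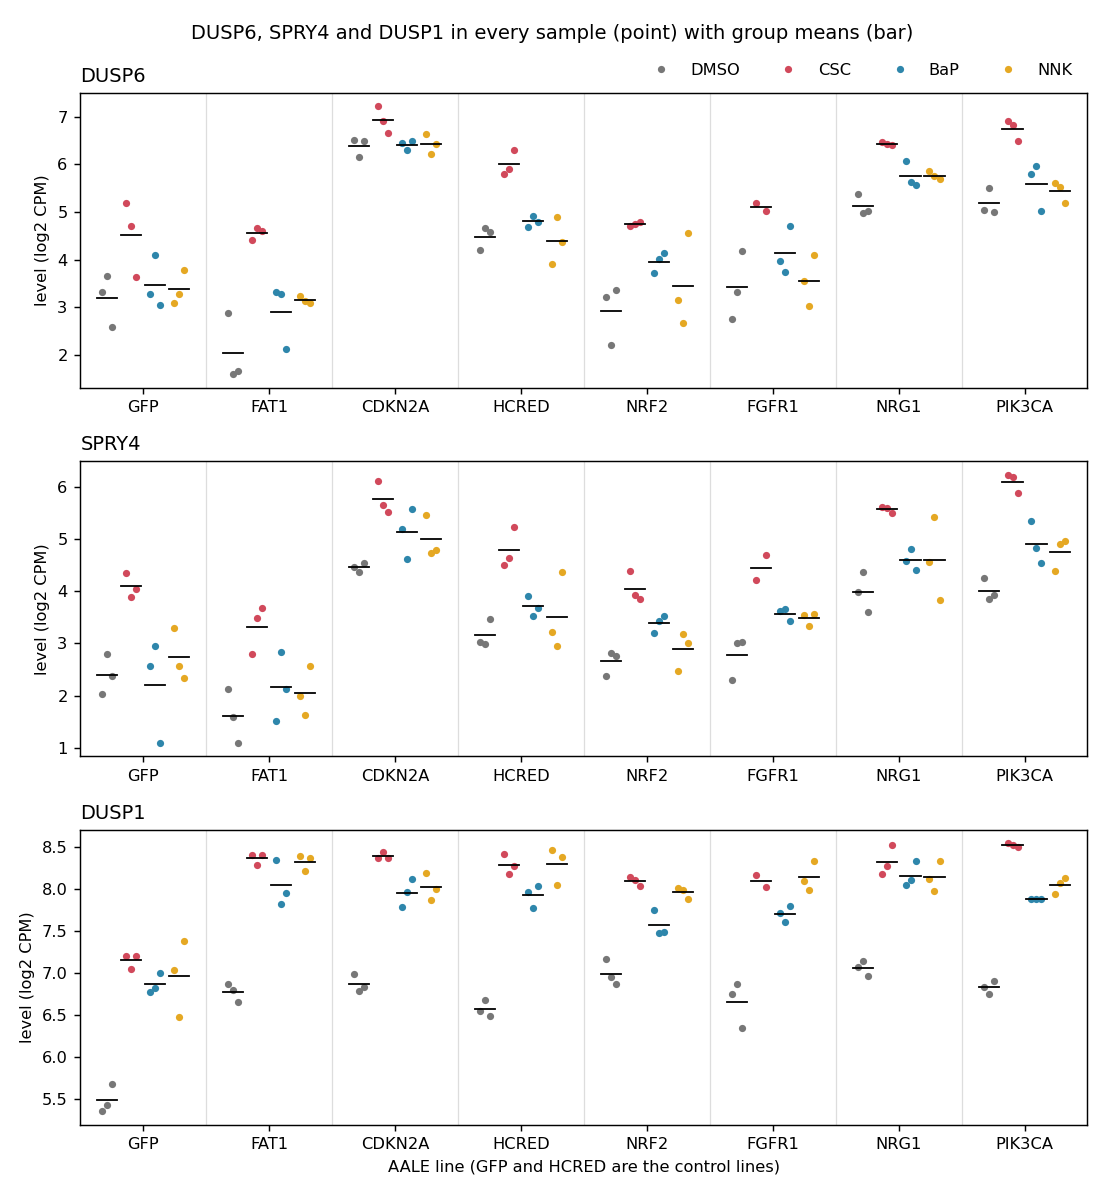
Levels of DUSP6, SPRY4 and DUSP1 in every sample. Each point is 1 library (log2 CPM, y axis), grouped by line (x axis) and coloured by treatment, and bars are group means. DUSP6 and SPRY4 were high in CDKN2A, NRG1 and PIK3CA also with DMSO, whereas DUSP1 was lowest with DMSO in every line.

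The chemicals raised most of the family. The question for each chemical was how it changed expression against DMSO when the line was a term of the model (limma-voom, 95 samples). With CSC, 9 of the 10 members rose and none fell, where 28.0% of the 14384 genes tested were called higher and 55.1% were called in either direction. Their median log2 fold change was 1.08, where that of all genes was 0.0035. With BaP, 7 rose and none fell, where 26.1% of genes were called higher and 51.0% in either direction. With NNK, 6 rose and 1, SPRED1, fell, where 26.1% were called higher, 25.7% lower and 51.8% in either direction. The members' median was 0.43 with BaP and 0.48 with NNK, where those of all genes were 0.012 and 0.0012. The 3 comparisons share the same 24 DMSO samples and the doses are in different units, so their values are set side by side without a test between chemicals. The members were chosen with earlier results of these data known, so counts of members called, here and below, are descriptions.

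**Figure D2:**
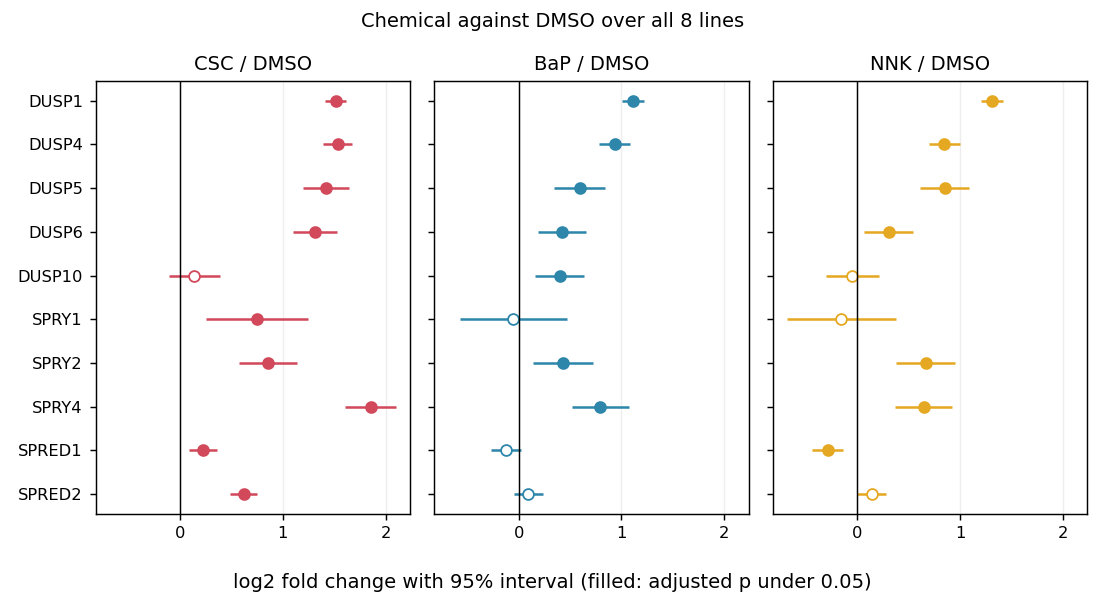
Log2 fold change of each member for CSC, BaP and NNK against DMSO over all 8 lines (x axis) with 95% confidence intervals (lines). Filled points passed an adjusted p under 0.05. DUSP1, DUSP4, DUSP5, DUSP6, SPRY2 and SPRY4 are filled and right of 0 for all 3 chemicals.

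Each line was also tested on its own. Counted as member-by-line pairs, CSC raised 49 of 80 pairs and lowered none, where 7.48% of all gene-by-line pairs were called higher, 6.75% lower and 14.2% in either direction. All CSC samples lay above all DMSO samples in 56 of the 80 pairs (16.0% of all gene-by-line pairs). BaP raised 18 of 80 and lowered none (5.02% of all pairs called higher, 9.81% in either direction). NNK raised 19 and lowered 2, DUSP10 in FAT1 and SPRED1 in GFP (9.31% in either direction).

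Among the nuclear phosphatases, DUSP1 was the one called in every line with each chemical. Its level was 38.9, 111 and 142 CPM (lowest, median, highest) in the 24 DMSO samples, 130.1, 309 and 373 in the 23 CSC samples, 108, 229 and 325 with BaP and 87.0, 265 and 353 with NNK. The low end of each range came from the GFP line, and within every line all treated samples lay above all DMSO samples. The log2 fold change was 1.51 ± 0.052 (SE) with CSC, 1.11 ± 0.054 with BaP and 1.31 ± 0.053 with NNK. After a correction for GC content and length the CSC value was 1.27, a shift that the standard error does not cover. DUSP1 passed the test in 8 of 8 lines with each chemical, with log2 fold changes from 1.10 (NRF2) to 1.74 (HCRED) with CSC, from 0.59 (NRF2) to 1.39 (FAT1) with BaP and from 0.97 (NRF2) to 1.74 (HCRED) with NNK. The line with the smallest response to each was NRF2, but the test of a difference between the 8 lines missed the threshold for DUSP1 (adjusted p = 0.421 for CSC, 0.591 for BaP and 0.538 for NNK, limma F test). The unadjusted p of this F test was 0.0313, 0.0104 and 0.00692, and edgeR called DUSP1 for NNK (adjusted p = 0.0265).

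DUSP4 was at 16.1, 37.6 and 85.6 CPM with DMSO and 70.1, 132 and 205 with CSC, 35.4, 72.8 and 149.9 with BaP and 45.4, 82.4 and 135 with NNK. Over all lines the log2 fold change was 1.54 ± 0.071 with CSC, 0.93 ± 0.076 with BaP and 0.85 ± 0.076 with NNK. It passed in 8 of 8 lines with CSC, in 7 with BaP and in 6 with NNK. DUSP5, the nuclear phosphatase that prefers ERK, was at 3.89, 13.9 and 31.8 CPM with DMSO and 12.5, 36.6 and 98.8 with CSC. Its log2 fold change was 1.42 ± 0.11 with CSC, 0.60 ± 0.13 with BaP and 0.85 ± 0.12 with NNK, and 7, 1 and 3 of the 8 lines passed on their own. After the correction for GC content and length the CSC values were 1.37 for DUSP4 and 1.17 for DUSP5. NRF2 was the line that did not pass with CSC (log2 fold change 0.86, adjusted p = 0.186).

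DUSP6, the cytoplasmic ERK phosphatase, rose with all 3 chemicals over all lines. Its log2 fold change was 1.31 ± 0.11 with CSC (adjusted p = 5.30e-22), 0.43 ± 0.12 with BaP (adjusted p = 0.00145) and 0.31 ± 0.12 with NNK (adjusted p = 0.0247). The NNK call was lost without replicate 1 (adjusted p = 0.0577), 2 (0.0747) or 3 (0.0958). All 8 lines passed with CSC, 1 (NRG1) with BaP and 0 with NNK. With NNK, limma, edgeR and DESeq2 each called 0 lines, and 2 of the 8 had an unadjusted p under 0.05 with limma. In the HCRED control line its samples were at 16.3, 23.1 and 21.8 CPM with DMSO, 53.1, 57.7 and 76.6 with CSC, 23.6, 28.2 and 25.5 with BaP and 12.9, 27.8 and 18.4 with NNK. There the CSC samples stood above all others, and the NNK samples overlapped those with DMSO. DUSP10, which acts on p38 and JNK, was called higher with BaP alone, with a log2 fold change of 0.40 ± 0.12 (adjusted p = 0.00397), against 0.14 ± 0.13 with CSC and -0.049 ± 0.13 with NNK, and whether these differ was not tested. The BaP call of DUSP10 was lost without replicate 2 (adjusted p = 0.0546). Within lines, NNK moved it in opposite directions: DUSP10 was called higher in HCRED, where samples went from 9.45, 10.1 and 4.95 CPM with DMSO to 22.9, 15.3 and 18.4, and lower in FAT1, where they went from 17.2, 15.7 and 17.7 to 7.29, 5.64 and 11.4. The groups did not overlap in either line, but the test over the 8 lines missed the threshold (adjusted p = 0.297).

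Among the Sprouty genes, SPRY4 had the largest CSC response of the 10 members. It was at 0, 5.96 and 21.2 CPM with DMSO and 4.77, 22.5 and 72.9 with CSC, and its log2 fold change was 1.85 ± 0.12 (3.62-fold), against 0.80 ± 0.14 with BaP and 0.65 ± 0.14 with NNK. After the correction for GC content and length the CSC value of SPRY4 was 1.70. With CSC it passed in all 8 lines, and all CSC samples lay above all DMSO samples in each. In PIK3CA its samples went from 16.9, 12.2 and 13.0 CPM with DMSO to 72.9, 70.2 and 56.7 with CSC, and in GFP from 1.94, 4.79 and 3.07 to 18.2, 12.6 and 14.3. SPRY2 rose by less: its log2 fold change was 0.85 ± 0.14 with CSC, 0.43 ± 0.15 with BaP and 0.66 ± 0.15 with NNK. The BaP call of SPRY2 was lost without the 9 libraries under 500000 reads (adjusted p = 0.0527). Separately, it was lost after the correction for GC content and length (0.0637), and without replicate 1 (0.0528) or 3 (0.0872). SPRY1 was called higher with CSC (adjusted p = 0.00739), where libraries held 0 to 12 reads, against 0 to 11 with DMSO. The call was lost without replicate 1 (adjusted p = 0.0572) or 3 (0.174). Most of these counts are at or under the floor of 3, so no fold is given.

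Of the SPRED genes, SPRED2 was at 25.4, 43.0 and 69.8 CPM with DMSO and 46.2, 70.1 and 100.3 with CSC, a log2 fold change of 0.62 ± 0.066, and its log2 fold changes of 0.10 ± 0.072 with BaP and 0.14 ± 0.071 with NNK did not pass. All CSC samples of SPRED2 lay above all DMSO samples in 8 of 8 lines. SPRED1, which brings neurofibromin to the membrane, had a log2 fold change of 0.22 ± 0.069 with CSC (adjusted p = 0.00417) and -0.29 ± 0.078 with NNK (adjusted p = 0.000981), the latter the one decrease of a member among the 3 chemicals over all lines. With NNK its fitted value was below DMSO in 8 of 8 lines, with 1 (GFP) past the test. SPRED1 is AT-rich (36.5% GC over its exons), and after a correction for GC content and length its NNK value was -0.033 (adjusted p = 0.826) and its CSC value 0.51. The CSC call was lost without replicate 2 (adjusted p = 0.0608) and the NNK call without replicate 1 (0.0546).

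Each line was also compared with its control line with the treatment as a term (limma-voom, 95 samples). FAT1 and CDKN2A share the 12 GFP samples, and the 4 overexpression lines share the 12 HCRED samples. The control lines themselves were not alike: with DMSO, DUSP1 was at 38.9, 41.2 and 49.1 CPM in GFP and 92.0, 101 and 88.1 CPM in HCRED, and DUSP6 was at 7.78, 10.5 and 3.84 and 16.3, 23.1 and 21.8 CPM, with no overlap for either gene. The control lines were not compared by a test. With DMSO, GFP had the lowest DUSP1 of the 8 lines, with every sample of the other lines at 79.3 CPM or more. Its mean DUSP5 was also the lowest, at 6.15 CPM, against 10.5 in HCRED, 11.1 in FAT1 and 24.8 in CDKN2A. DUSP4 (16.1 to 31.6 CPM in GFP, 39.6 to 52.4 in HCRED) and SPRY4 (1.94 to 4.79 and 5.77 to 8.91) with DMSO were also lower in GFP without overlap. DUSP10 was higher in GFP (14.6 to 18.2 CPM) than in HCRED (4.95 to 10.1), and the ranges of the other members overlapped. Rises of DUSP1, DUSP4, DUSP5, DUSP6 and SPRY4 in FAT1 or CDKN2A are relative to a control that was low for them. The members' median log2 fold change was 1.122 in CDKN2A, -0.21 in FAT1, 0.43 in NRG1, 0.12 in PIK3CA, -0.42 in NRF2 and -0.35 in FGFR1, where that of all genes lay between -0.0078 and 0.027.

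**Figure D3:**
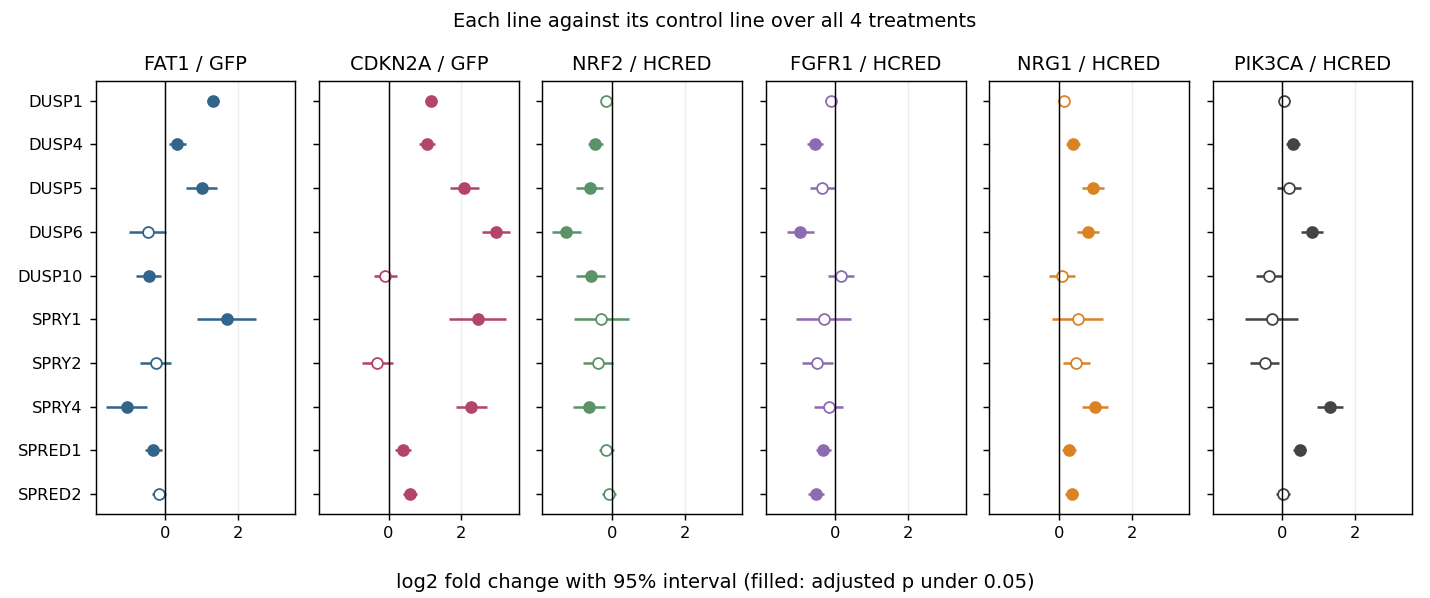
Log2 fold change of each member in 6 lines against their control line (GFP for FAT1 and CDKN2A, HCRED for the others) over all 4 treatments, with 95% confidence intervals. Filled points passed an adjusted p under 0.05. DUSP6 and SPRY4 stand furthest right in CDKN2A among their own 6 comparisons, at 2.95 and 2.28.

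In the CDKN2A knockout line, the locus of the cyclin-dependent kinase inhibitor p16, 8 of the 10 members were higher than in GFP and none was lower, where 29.9% of genes were called higher and 58.7% in either direction. DUSP6 was at 7.78, 10.5 and 3.84 CPM in GFP and 89.1, 68.8 and 87.5 CPM in CDKN2A with DMSO, and over all treatments the 12 CDKN2A samples (68.8 to 147 CPM) lay above the 12 GFP samples (3.84 to 34.6 CPM). The log2 fold change was 2.95 ± 0.19 (7.73-fold). SPRY4 had a log2 fold change of 2.28 ± 0.21, again with no overlap, DUSP5 of 2.08 ± 0.20, DUSP1 of 1.17 ± 0.083 and DUSP4 of 1.07 ± 0.11. SPRED2 (0.58 ± 0.094) and SPRED1 (0.39 ± 0.11) were also called higher. SPRY1 was called higher with 1 to 11 reads in CDKN2A libraries and 0 to 3 in those of GFP, too few for a fold. DUSP10 (-0.091 ± 0.16) and SPRY2 (-0.31 ± 0.21) were the members not called.

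In the FAT1 knockout line 4 members were called higher and 3 lower. DUSP1 (1.31 ± 0.083), DUSP5 (1.01 ± 0.21), DUSP4 (0.34 ± 0.12) and SPRY1 were called higher than in GFP, and SPRY4 (-1.05 ± 0.28), DUSP10 (-0.45 ± 0.17) and SPRED1 (-0.33 ± 0.12) lower, where 25.3% of genes were called higher and 23.7% lower (49.1% in either direction). SPRY1 held 0 to 4 reads in FAT1 libraries and 0 to 3 in those of GFP, too few for a fold. DUSP6 had a log2 fold change of -0.47 ± 0.26 and was not called. The DUSP4 value turned with DMSO alone, where its log2 fold change was -0.35 ± 0.26 (adjusted p = 0.362), with samples at 18.0, 20.1 and 19.7 CPM in FAT1 and 30.1, 31.6 and 16.1 in GFP. SPRY4 samples were at 2.24, 0.874 and 0 CPM with DMSO in FAT1, which are 3, 1 and 0 reads, and at 1.94, 4.79 and 3.07 CPM in GFP. The DUSP10 call was lost with edgeR (adjusted p = 0.056) and with DESeq2 (0.0595), and that of SPRED1 after the correction for GC content and length (0.0918). Leaving out 1 replicate number ended the calls of DUSP4 (0.0512 without replicate 1, 0.0757 without 3), SPRY4 (0.0739 without 1), SPRED1 (0.122 without 1, 0.0722 without 3) and DUSP10 (0.166 without 2, 0.063 without 3).

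Among the overexpression lines, NRG1 and PIK3CA stood above HCRED. NRG1, which overexpresses the ErbB3 and ErbB4 ligand neuregulin 1, had 6 members higher and none lower, where 6.54% of genes were called higher and 12.5% in either direction. These were SPRY4 (0.99 ± 0.18), DUSP5 (0.94 ± 0.16), DUSP6 (0.80 ± 0.15), DUSP4 (0.38 ± 0.10), SPRED2 (0.35 ± 0.095) and SPRED1 (0.28 ± 0.10). DUSP5 samples were at 14.6, 10.1 and 6.93 CPM in HCRED with DMSO and at 20.4, 31.8 and 22.3 CPM in NRG1, with no overlap. The SPRED1 call in NRG1 was lost with no filter on low counts (adjusted p = 0.102), after the GC and length correction (0.0522) and without the 5 libraries outside the line that held NRG1 reads (0.0502), and without replicate 1 (0.323), 2 (0.125) or 3 (0.0556). Calls in NRG1 were also lost for DUSP6 without replicate 1 (0.0527) and for DUSP4 (0.0582) and SPRED2 (0.160) without replicate 2. PIK3CA, which overexpresses the catalytic subunit of PI3-kinase alpha, had 4 higher and none lower (14.2% of genes called higher, 27.9% in either direction): SPRY4 (1.31 ± 0.18), DUSP6 (0.81 ± 0.15), SPRED1 (0.48 ± 0.093) and DUSP4 (0.28 ± 0.10). SPRED1 was at 104, 91.0 and 84.3 CPM in PIK3CA with DMSO and at 60.2, 54.9 and 56.4 CPM in HCRED. The DUSP4 call in PIK3CA was lost without replicate 1 (adjusted p = 0.0646) or 2 (0.118).

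NRF2 and FGFR1 stood below HCRED. NRF2, which overexpresses the oxidative stress regulator NFE2L2, had 5 members lower and none higher, where 12.0% of genes were called lower and 22.0% in either direction. DUSP6 had a log2 fold change of -1.26 ± 0.20, SPRY4 of -0.63 ± 0.22, DUSP5 of -0.61 ± 0.19, DUSP10 of -0.59 ± 0.20 and DUSP4 of -0.45 ± 0.11. With DMSO, DUSP6 samples were at 7.18, 2.46 and 8.13 CPM in NRF2 and 16.3, 23.1 and 21.8 CPM in HCRED, with no overlap. FGFR1, which overexpresses fibroblast growth factor receptor 1, had 4 lower and none higher (6.82% of genes called lower, 14.2% in either direction). They were DUSP6 (-0.97 ± 0.19), DUSP4 (-0.57 ± 0.11), SPRED2 (-0.54 ± 0.11) and SPRED1 (-0.33 ± 0.11). With DMSO alone none of the 10 passed for FGFR1 with limma-voom (1.86% of genes), 3 did at an unadjusted p under 0.05, and edgeR and DESeq2 called 0 as well. The 2 FGFR1 samples with DMSO and over 100 CPM of NRG1 had 7.87 and 16.1 CPM of DUSP6. The other sample, with 16.5 CPM of NRG1, had 4.59 CPM of DUSP6. Without the 5 libraries outside the NRG1 line that held NRG1 reads, SPRED1 was no longer called in FGFR1 (-0.28, adjusted p = 0.0875), and 3 members rather than 5 were called in NRF2, where DUSP10 (-0.49, adjusted p = 0.0806) and SPRY4 (-0.53, adjusted p = 0.113) were lost. Without replicate 1, 2 or 3 the adjusted p of DUSP10 in NRF2 was 0.0617, 0.198 and 0.073. In NRF2, SPRY4 was also lost without replicate 1 (0.0819) or 3 (0.252) and DUSP5 without 1 (0.162), and in FGFR1 SPRED1 was lost without 1 (0.198) or 2 (0.109).

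With DMSO alone, 14 of the 60 member-by-line pairs were higher than in the control line and 2 were lower, where 6.92% of all gene-by-line pairs were called higher, 7.07% lower and 14.0% in either direction. CDKN2A held 7 of the 14 (18.9% of genes called higher in CDKN2A with DMSO). The others were DUSP1 (higher) and SPRED1 (lower) in FAT1, where 26.3% of genes were called, DUSP1 (higher) and DUSP6 (lower) in NRF2 (7.16%), DUSP1 and DUSP5 in NRG1 (2.04%), and DUSP4, DUSP6 and SPRED1 in PIK3CA (8.60%). Of the 16 calls, 8 were lost when 1 library was left out. Without NRF2 sample 2, DUSP6 in NRF2 had an adjusted p of 0.0567, and DUSP6 in PIK3CA had 0.212 without PIK3CA sample 2 and 0.211 without HCRED sample 1. DUSP4 in PIK3CA had 0.061 without HCRED sample 3. SPRED1 in FAT1 had 0.0738 without FAT1 sample 1 and 0.121 without GFP sample 3, and SPRY1 in CDKN2A had 0.0527 without GFP sample 1. DUSP1 in NRF2 was lost without NRF2 sample 1 (0.174), HCRED sample 1 (0.0868) or HCRED sample 3 (0.0963). DUSP1 in NRG1 was lost without NRG1 sample 1 (0.0518) or 2 (0.0718) or HCRED sample 1 (0.0795) or 3 (0.107). DUSP5 in NRG1 was lost without NRG1 sample 2 (0.196) or HCRED sample 1 (0.0516), 2 (0.0695) or 3 (0.322). In the order of mean DUSP6 level with DMSO, CDKN2A came first, then PIK3CA (30.9, 43.5 and 29.6 CPM), NRG1 (39.4, 29.4 and 30.1), HCRED, FGFR1 (4.59, 7.87 and 16.1), GFP, NRF2 and FAT1 (5.24, 0.874 and 1.04). PIK3CA and NRG1 overlapped each other, and CDKN2A lay above both and HCRED below both without overlap. FGFR1, GFP and NRF2 overlapped each other and lay below HCRED, and the highest FAT1 sample lay within the ranges of FGFR1, GFP and NRF2. The FAT1 values rest on 7, 1 and 1 reads.

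The size of a chemical's effect differed between lines for 1 member, DUSP4, and the call did not hold under every alternative. An F test of 7 interaction contrasts called DUSP4 for CSC (adjusted p = 0.0239, where 0.813% of genes were called) and for NNK (adjusted p = 0.00178, 0.0626% of genes), and no member for BaP (0.202% of genes, with 2 members at an unadjusted p under 0.05). edgeR also called DUSP4 for BaP (adjusted p = 0.00529), DUSP6 for CSC (0.00305) and DUSP1 for NNK (0.0265). The CSC call of DUSP4 was lost without any 1 of the 3 replicate numbers (adjusted p = 0.137 to 0.404) and without the 5 libraries outside the NRG1 line that held NRG1 reads (0.0886), and the NNK call was lost without replicate 1 (0.0957) or 3 (0.288). DUSP4 samples in FAT1 went from 18.0, 20.1 and 19.7 CPM with DMSO to 87.1, 104 and 88.9 with CSC and 63.8, 77.1 and 79.7 with NNK. In CDKN2A they went from 84.7, 61.6 and 77.7 CPM with DMSO to 134, 146 and 132 with CSC and 91.1, 79.9 and 91.6 with NNK. The lines thus lay further apart with DMSO than after NNK. The log2 fold change was 2.25 ± 0.22 in FAT1 and 0.87 ± 0.15 in CDKN2A with CSC, and 1.94 ± 0.23 and 0.21 ± 0.14 with NNK. PIK3CA, the other line with high DUSP4 at DMSO (85.6, 67.9 and 72.2 CPM), had 1.30 ± 0.12 with CSC and 0.36 ± 0.14 with NNK. For DUSP6 the CSC response ranged from 0.51 ± 0.16 in CDKN2A to 3.22 ± 0.58 in FAT1, but the test missed the threshold (adjusted p = 0.108). The FAT1 value is set against 7, 1 and 1 reads with DMSO, so its size is uncertain.

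**Figure D4:**
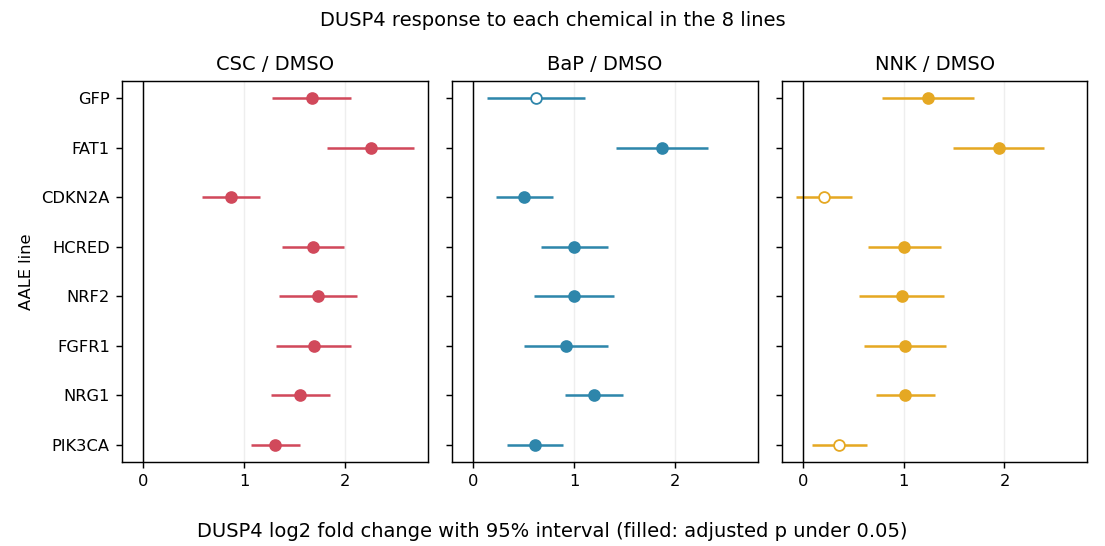
Log2 fold change of DUSP4 for CSC, BaP and NNK against DMSO within each of the 8 lines (y axis), with 95% confidence intervals. Filled points passed an adjusted p under 0.05. FAT1 stands furthest right in all 3 panels and CDKN2A furthest left.

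DUSP6 and SPRY4 tracked each other across the experiment. Over the 32 group means of log2 CPM their Pearson r was 0.96, and SPRY4 was the gene most like DUSP6 among 10061 genes compared, as DUSP6 was for SPRY4. Over the 8 lines with DMSO alone r was 0.98, which was not particular to this pair. There DUSP4 had r = 0.98 with SPRY4 and 0.95 with DUSP6, against 0.83 and 0.81 over the 32 groups. Over the 32 groups, the next most like DUSP6 were XDH (0.94) and EREG (0.93), and the next most like SPRY4 were SLC20A1 (0.94) and PLK3 (0.94). DUSP1 had r = 0.46 with DUSP6 and 0.81 with DUSP4, and the genes most like it were CAPN15 (0.92), FOS (0.91) and EGR1 (0.91). DUSP4 was most like FSCN1 (0.93), DUSP5 most like ITGA5 (0.91), SPRY2 most like SH3BP4 (0.82) and SPRED1 most like LOC100129940 (0.85). The genes most like SPRED2 were ETV4 (0.87) and ETV5 (0.85), which encode ETS factors. DUSP10 had r between -0.19 and 0.11 with the other 9 members. These points share libraries, lines and treatments, and the correlations are descriptions.

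**Figure D5:**
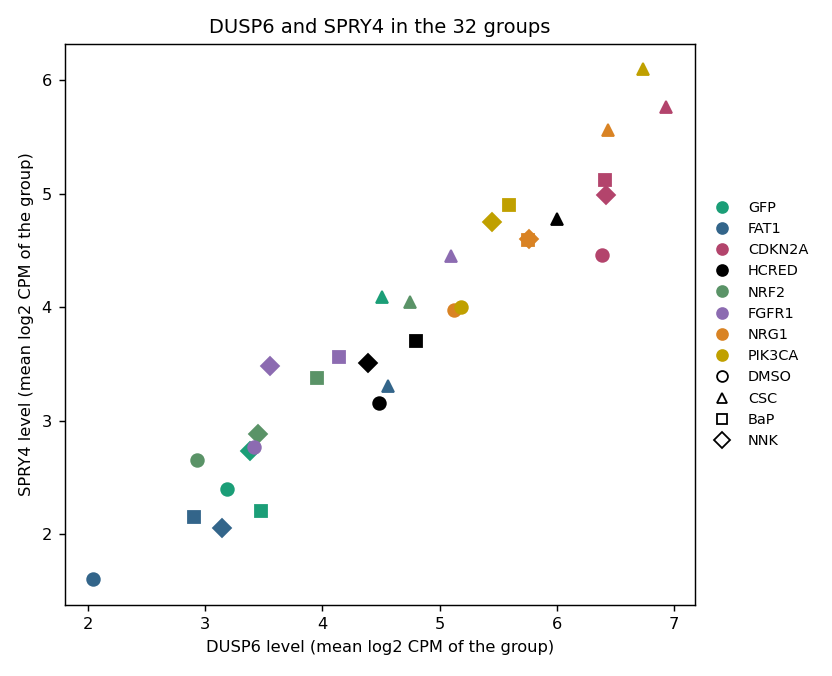
Mean SPRY4 level (y axis, log2 CPM) against mean DUSP6 level (x axis, log2 CPM) in the 32 groups, coloured by line with 1 marker shape per treatment. The groups form 1 band (Pearson r = 0.96) from FAT1 with DMSO at the lower left to CDKN2A and PIK3CA with CSC at the upper right.

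Other genes of the pathway were counted from lists, against the shares of all genes called and the medians given above for each comparison. The lists were chosen with earlier results of these data known, so the counts are descriptions and no independent support. Of 14 ERK output genes, 12 passed the filter. All 12 were higher with CSC, 10 with BaP and 8 with NNK, and none was lower with any of the 3 chemicals. Their median log2 fold changes were 1.18, 0.76 and 0.54. The immediate early transcription factors led these changes: FOS had a log2 fold change of 2.10 ± 0.10 with CSC and 2.34 ± 0.10 with NNK, and EGR1 of 1.97 ± 0.076 and 2.34 ± 0.074. All 12 were higher in CDKN2A, led by the cyclin CCND1 (1.93 ± 0.10), MYC (1.65 ± 0.11) and ETV5 (1.41 ± 0.12). NRG1 and PIK3CA had 8 higher each (0 and 1 lower), led by PHLDA1 (0.98 ± 0.11) in NRG1 and by the EGFR ligand HBEGF (0.89 ± 0.20) in PIK3CA. NRF2 had 8 lower and none higher, and FGFR1 5 lower and 1 higher, with CCND1 at -1.17 ± 0.089 and -1.23 ± 0.092. FAT1 had 5 higher and 3 lower, with FOS at 1.34 ± 0.15 and ETV5 at -1.58 ± 0.17.

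The kinases and adaptors above ERK did not move one way. Of 25 ERK cascade genes, 11 were higher and 8 lower with CSC, 10 and 10 with BaP, and 10 and 10 with NNK, with medians of 0.015, 0.014 and 0.089. In CDKN2A 9 were higher and 8 lower, with ERBB3, the neuregulin receptor, at -1.21 ± 0.11 and EGFR at 0.76 ± 0.043. In NRG1, whose line overexpresses its ligand, ERBB3 was lower (-0.69 ± 0.10), and 2 of 25 were higher and 2 lower. Of 10 JNK and p38 kinase genes, 3 were higher and 2 lower with CSC, led by MAP2K6, an activator of p38, at -0.87 ± 0.13.

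Other negative regulators were counted in the same way. Of 8 other feedback inhibitors, 5 were higher and 1 lower with CSC, 3 and 1 with BaP, 2 and 0 with NNK, and 6 and 0 in CDKN2A. ERRFI1, the EGFR inhibitor MIG6, had log2 fold changes of 0.56 ± 0.053 with CSC and 1.26 ± 0.08 in CDKN2A. LRIG1, which lowers receptor levels, was at -1.65 ± 0.26 in FAT1. Of 9 further phosphatase and SPRED genes tested, 5 were higher and 0 lower with CSC, 3 and 0 with BaP, and 1 and 1 with NNK, and DUSP7, a cytoplasmic ERK phosphatase, had log2 fold changes of 0.62 ± 0.064 with CSC and -0.57 ± 0.10 in NRF2. Of 12 p53 targets, 7 were higher and 3 lower with CSC, with the cell cycle inhibitor CDKN1A at 0.99 ± 0.049, and 6 were higher and none lower in CDKN2A.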

How the data were processed

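RNA of the 95 AALE samples was profiled by sparse full length (SFL) RNA-seq, a multiplexed total RNA method with single-end reads. Per the labels and the methods of the study, reads were trimmed with cutadapt 1.12, checked with FastQC 0.11.5, aligned to hg19 with STAR 2.5.2b and assigned to RefSeq genes with featureCounts of Subread. The authors deposited raw counts per gene, 1 file for each sample, with 27978 genes in each. Reads without molecular identifiers are not independent molecules, so the floor covers counting error only.

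Counts were analysed in R 4.3.3 with limma-voom (limma 3.58.1) after TMM scaling (edgeR 4.0.16), for genes averaging more than 1 count per sample of the fit, with Benjamini-Hochberg adjustment over all genes tested and a threshold of 0.05 (2-sided). Over all lines or all treatments, 1 fit of 95 samples had terms for line and chemical. Responses within lines and their F tests came from a fit with a mean for each of the 32 groups. Comparisons with DMSO alone used 3 samples against 3. Fold changes are log2 with their standard errors, and CPM are scaled by TMM. Levels in log2 CPM have a prior count of 2. Likeness between genes is Pearson's r over the 32 group means of log2 CPM. Group labels came from the sample annotations. No sample was left out. The scripts were tested on simulated data.

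Other settings tried were no filter, DESeq2 1.42.0 (its test, and its size factors alone), edgeR's quasi-likelihood fit, a mean count of at least 10, a replicate block, a loess correction for GC content and length, and leaving out libraries. The members and the gene lists were chosen with earlier results of these data known. Named are the 10 members and, of each list, called genes with the largest changes among those with a mean count of at least 10.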

Additional observations from a re-analysis of the deposited data

Results flagged for a closer look

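The response of DUSP4 to CSC differed between the 8 lines (limma F test of 7 interaction contrasts, adjusted p = 0.0239), and so did its response to NNK (adjusted p = 0.00178). What marked both was this test of the difference itself. With edgeR the adjusted p of DUSP4 was 0.0036 for CSC and 3.28e-06 for NNK. With limma and without replicate 1, 2 or 3 it was 0.404, 0.137 and 0.298 for CSC and 0.0957, 0.047 and 0.288 for NNK. Without the 5 libraries outside the NRG1 line that held NRG1 reads, which leaves 1 sample in 2 of the groups and 2 in another, it was 0.0886 for CSC and 0.00772 for NNK, and the lone samples are assumed to vary like the other groups.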

How the results depend on the processing

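Of 744 values of called members recomputed under an alternative, 710 kept their direction and stayed past the threshold, 34 kept their direction only and 0 reversed. Another 273 values were recomputed without replicate 1, 2 or 3 or, for comparisons with DMSO alone, without 1 library. Of these, 217 stayed past the threshold, 56 kept their direction only and 0 reversed. Values of the interaction F tests have no direction and were judged by the threshold alone. edgeR's quasi-likelihood test called 2 members for the CSC interaction (DUSP4 and DUSP6, against 1), 1 for BaP (DUSP4, against 0) and 2 for NNK (DUSP1 and DUSP4, against 1), and DESeq2's Wald test called 9 member-by-line pairs with DMSO alone, against 16. Without the 5 libraries outside the NRG1 line that held NRG1 reads, an alternative chosen after seeing the data, 3 members were called in NRF2 (against 5) and 0 for the CSC interaction (against 1). The cause of these changes was not tested.

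Leaving out replicate 1, 2 or 3 in turn gave 8 members called for CSC (9 with all samples), 6 for BaP (7) and 5 to 6 for NNK (7). By line it gave 4 to 6 for FAT1 (7), 8 for CDKN2A (8), 2 to 4 for NRF2 (5), 3 to 4 for FGFR1 (4), 3 to 5 for NRG1 (6) and 3 to 5 for PIK3CA (4). The lowest counts of FAT1 and NRF2 came without replicate 1, and that of NRG1 without replicate 2. Within lines it gave 40 to 41 pairs for CSC (49), 13 to 16 for BaP (18) and 15 to 17 for NNK (21). Interactions gave 0 members for CSC (1), 0 for BaP (0) and 0 to 1 for NNK (1). With DMSO alone, leaving out 1 library gave 12 to 17 pairs (16). These fits hold fewer samples.

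Samples share replicate numbers across groups. Correlations between the deviations of same-numbered samples were low, from -0.035 to 0.089 over 30 comparisons. Counting error in libraries of this depth can hide a shared deviation, so these values cannot decide whether the numbers pair the samples. With the replicate block the members called were 9 for CSC, 7 for BaP, 7 for NNK, 7 for FAT1, 8 for CDKN2A, 5 for NRF2, 4 for FGFR1, 6 for NRG1 and 5 for PIK3CA, the pairs were 49 for CSC, 19 for BaP, 21 for NNK and 18 with DMSO alone, and the interactions 1 for CSC, 0 for BaP and 1 for NNK.

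Over all genes, the correction for GC content and length lowered the calls from 7922 to 4503 for CSC (4490 with the block), from 7337 to 3355 for BaP (3344) and from 7455 to 2353 for NNK (2331), with 13487 genes tested. With no filter, 22764 genes were tested, 12546 were called for BaP (8813 higher, against 3755 of 7337) and 12582 for NNK (8746 higher, against 3755 of 7455). Without replicate 1 the calls were 2009 for NRF2 (3164 with all), 1259 for FGFR1 (2036) and 936 for NRG1 (1798), without replicate 2 they were 1243 for FGFR1 and 1138 for NRG1, and without replicate 3 they were 1255 for FGFR1. Depth limits SPRY1 and, in FAT1, SPRY4, whose libraries hold few reads.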
